A study of Mus musculus with 3 samples.

Results

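Smooth muscle contractile genes were followed in the spleen of islet graft recipients through 10 genes chosen by name, Acta2, Actg2, Myh11, Mylk, Tagln, Cnn1, Smtn, Des, Lmod1 and Myocd. Every non-control probe carrying 1 of these names was taken, which gave 12 of the 55679 probes and 10 of the 34797 names on the array. RNA came from the spleens of male C57BL/6J recipients made diabetic with streptozotocin, a toxin of pancreatic beta cells, and 1 array was hybridized for each condition. All recipients had received 25 islets into the spleen and 100 beneath the kidney capsule (SP25+KC100), and islet donors were mice of the same strain. Sample 1 was spleen taken on day 0, immediately after the transplantation, and Sample 2 was spleen of day 2. Sample 3 was spleen of day 139, from recipients whose graft-bearing kidney had been removed on day 100. The text of the labels and of the study gives SP25+KC100 for all samples, whereas the treatment entries of the labels name the capsular graft for Sample 3 alone. The number of mice behind an array is not given in the sources used here, and the study gives an age range for its mice as a whole but not by array. For Sample 3, the time after transplantation, age and the nephrectomy cannot be told apart, and no spleen without a graft was measured.

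Smooth muscle cells shorten when phosphorylated myosin pulls on filaments of smooth muscle actin. Their contractile genes are driven by serum response factor, which binds a promoter element called the CArG box together with its coactivators of the myocardin family. In the spleen such proteins are known from the walls of arteries and veins, from the capsule and the trabeculae, and from contractile stromal cells of the red and white pulp, and activated fibroblasts also make several of them.

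Promoters of 300 bases, from 250 before to 50 after the annotated start, were held for 6 of the 10 genes in the RefSeq table of build GRCm38.p6 (Acta2, Cnn1, Des, Lmod1, Mylk and Smtn). Those of Acta2, Cnn1 and Des are printed because these genes lay at the upper and lower end of the differences described later. The Acta2 window is chr19:34255324-34255623 on the minus strand, that of Cnn1 is chr9:22099003-22099302 on the plus strand and that of Des is chr1:75360042-75360341 on the plus strand. Each is written 5′ to 3′, and capitals mark matches to a CArG box in which 1 base of the A and T core may be G or C.
Acta2: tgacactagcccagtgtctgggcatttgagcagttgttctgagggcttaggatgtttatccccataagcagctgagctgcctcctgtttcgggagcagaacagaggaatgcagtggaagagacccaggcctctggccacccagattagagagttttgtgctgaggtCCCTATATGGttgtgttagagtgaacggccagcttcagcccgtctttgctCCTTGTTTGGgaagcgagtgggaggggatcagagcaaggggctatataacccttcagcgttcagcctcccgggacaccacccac
Cnn1: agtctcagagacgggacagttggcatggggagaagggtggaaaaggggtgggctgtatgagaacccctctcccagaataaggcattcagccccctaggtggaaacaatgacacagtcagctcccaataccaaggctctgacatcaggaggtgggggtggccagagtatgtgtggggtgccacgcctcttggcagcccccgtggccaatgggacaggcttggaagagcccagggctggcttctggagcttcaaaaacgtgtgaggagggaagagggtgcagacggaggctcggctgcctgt
Des: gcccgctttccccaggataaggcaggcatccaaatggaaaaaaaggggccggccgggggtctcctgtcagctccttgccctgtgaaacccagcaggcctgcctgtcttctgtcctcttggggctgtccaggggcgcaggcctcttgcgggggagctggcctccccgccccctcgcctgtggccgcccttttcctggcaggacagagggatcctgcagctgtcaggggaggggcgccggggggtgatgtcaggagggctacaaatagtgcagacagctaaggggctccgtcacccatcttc
On either strand, a CArG box with a core of A and T only was in 0 of the 6 member promoters and in 1.63% of 32851 promoters of the same length. With 1 G or C allowed in the core, 2 matches lay in the Acta2 promoter, CCCTATATGG from base -84 to base -75 and CCTTGTTTGG from base -34 to base -25 relative to the start. The other 5 member promoters held none, and 9.98% of all promoters held at least 1. These are letter matches within the window and say nothing of binding.

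The arrays gave a similar share of signal above background in all samples. The scanner software called 30291, 29982 and 28088 probes of Samples 1, 2 and 3 well above background, and 32108 probes were above it in at least 1 sample and entered the comparisons. No spot was saturated. All 10 genes listed as markers of spleen were well above background in every sample, among them Tlx1 (520, 464 and 390 in Samples 1, 2 and 3) and Nkx2-5 (488, 946 and 415), transcription factors of the spleen mesenchyme. With 3 arrays, their number limits the precision, and the spread between mice is unknown.

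Of the 10 genes, 8 were measured and all 8 had their highest signal in Sample 2. The 10 probes of Acta2, Actg2, Myh11, Mylk, Tagln, Cnn1, Smtn and Des were well above background in all samples. Values are signals after quantile normalization, which gives the 3 arrays a common distribution, so they are relative to the other transcripts of the sample. The level of a probe depends on its own sequence, so it is compared between samples and not with other probes. The error after each value is that of the scanner software for the spot, and does not include the spread between mice. In whole spleen RNA, more smooth muscle cells and more RNA per smooth muscle cell cannot be told apart.

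**Figure D1:**
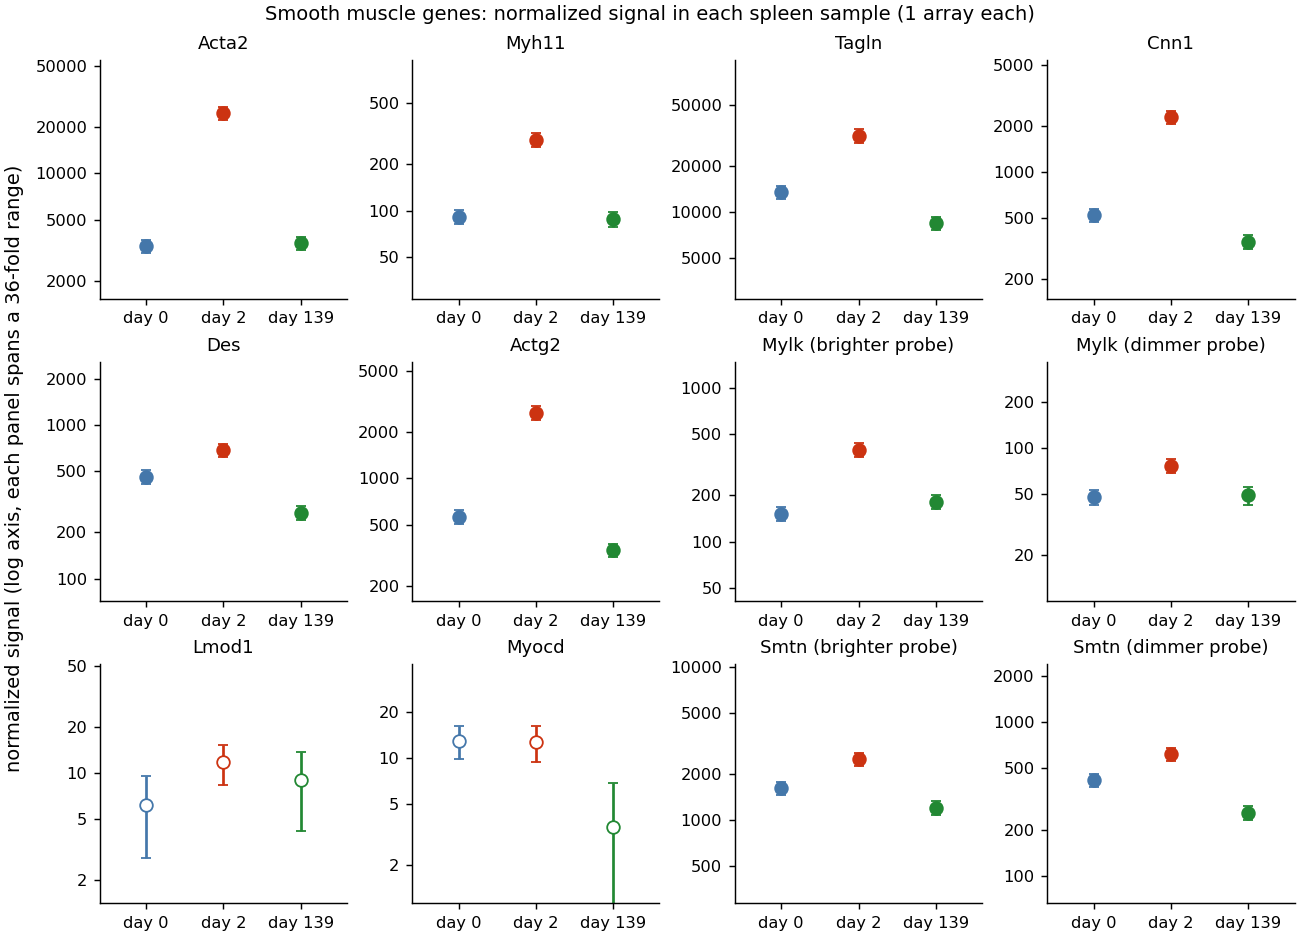
Normalized signal (log axis, the same fold range in every panel) of each of the 12 smooth muscle probes on day 0 (Sample 1, blue), day 2 (Sample 2, red) and day 139 (Sample 3, green), 1 array each. Bars are the error of the scanner software, and open circles are signals not well above background (1 bar of Myocd runs below its axis). The day 2 point is the highest in the 10 panels with filled circles.

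Among the actins, Acta2, which encodes smooth muscle alpha actin of the vascular type, gave 3364 ± 336 on day 0, 24804 ± 2480 on day 2 and 3500.2 ± 350.0 on day 139. Sample 2 thus stood alone, while Samples 1 and 3 lay within their errors. Actg2, the gamma actin of visceral smooth muscle, gave 565 ± 56.6, 2682 ± 268 and 341 ± 34.3. Its level was also by far highest in Sample 2, and it was lowest in Sample 3. Acta2 was 7.37-fold higher in Sample 2 than in Sample 1 and 7.09-fold lower in Sample 3 than in Sample 2, and the corresponding values of Actg2 were 4.75-fold and 7.88-fold.

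The Acta2 probe was printed on 10 spots of each array, which gives the technical error within an array. Before normalization the spots lay between 3257 and 3657 in Sample 1 (median 3487), between 24816 and 27759 in Sample 2 (median 26378) and between 2932 and 3354 in Sample 3 (median 3161). The lowest spot of Sample 2 was therefore far above every spot of the other samples, and the coefficient of variation between spots was 3.67%, 3.04% and 3.87%. This probe covers chr19:34316060-34316119 on the minus strand of build mm9, in transcript NM_007392, by the array's own annotation. The spots share 1 RNA preparation per sample and are not replicates of the condition.

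**Figure D2:**
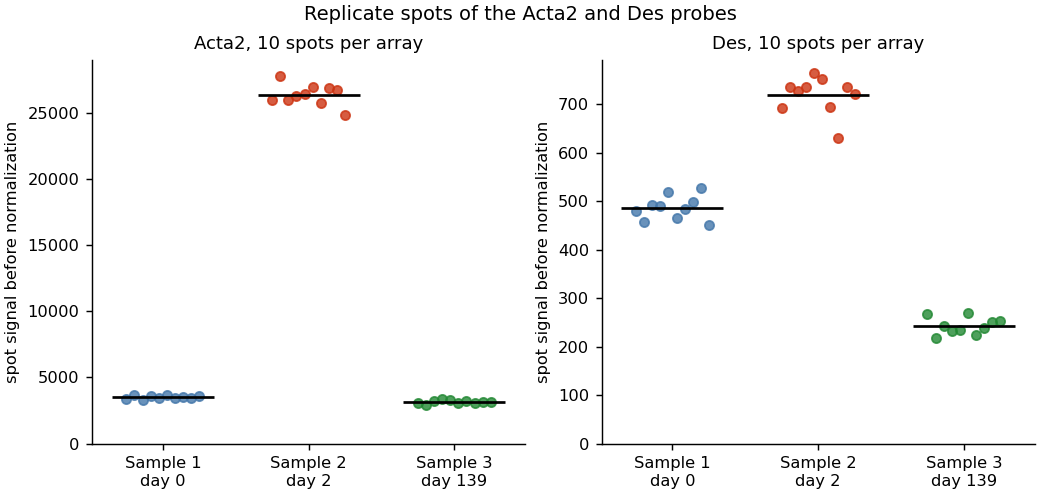
Signal of each of the 10 spots of the Acta2 probe (left) and of the Des probe (right) before normalization, on a linear axis from 0, with a horizontal line at the mean of each array. The Acta2 spots of Sample 2 (24816 to 27759) lie apart from those of Samples 1 and 3 (2932 to 3657), and the Des spots of the 3 samples do not overlap.

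The myosin genes were also highest in Sample 2. Myh11, the smooth muscle myosin heavy chain and the member most restricted to smooth muscle, gave 91.1 ± 9.54, 289 ± 29.0 and 88.0 ± 9.61 in Samples 1, 2 and 3. The level of Sample 2 was 3.17-fold that of Sample 1, and Samples 1 and 3 lay within their errors. Mylk, the kinase that phosphorylates the myosin light chain, was read by a pair of probes. The brighter, assigned to NM_139300, gave 153 ± 15.5, 399 ± 40.0 and 182 ± 18.6, which was 2.61-fold higher in Sample 2 than in Sample 1. The dimmer, assigned to ENSMUST00000068988, gave 47.6 ± 5.59, 76.1 ± 8.18 and 49.0 ± 6.40, and its ratio of 1.60 was the smaller. Both Mylk probes put Sample 2 highest but differed in the size of the difference, at a log2 ratio of 1.39 against 0.68.

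Actin-associated proteins of the contractile apparatus were also highest in Sample 2. Tagln, encoding transgelin (SM22 alpha), gave 13382 ± 1338, 31416 ± 3142 and 8423 ± 842 in Samples 1, 2 and 3. Cnn1, encoding calponin, which restrains the myosin ATPase, gave 526 ± 52.6, 2285 ± 229 and 351 ± 35.3. For both genes the errors of the 3 samples did not overlap, with Sample 3 the lowest. Cnn1 was 4.35-fold and Tagln 2.35-fold higher in Sample 2 than in Sample 1. Smtn, encoding smoothelin, differed less. Its brighter probe (NM_001159284) gave 1614 ± 161, 2486 ± 249 and 1202 ± 120, and its dimmer probe (NM_013870) gave 421 ± 42.2, 617 ± 61.8 and 257 ± 26.1. The Smtn probes gave close ratios for Sample 2 over Sample 1, at 1.54 and 1.47.

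Des, encoding the muscle intermediate filament protein desmin, had the smallest difference between Samples 1 and 2 among the brightest probes of the 8 genes. It gave 462 ± 46.3 on day 0, 687 ± 68.7 on day 2 and 268 ± 27.1 on day 139. Its 10 spots ranged from 451 to 527 in Sample 1 (median 486), from 630 to 763 in Sample 2 (median 731) and from 217 to 270 in Sample 3 (median 239) before normalization, so the order of the samples was clear within the technical error although the ratio of Sample 2 over Sample 1 was only 1.49. The coefficient of variation between these spots was 5.08%, 5.32% and 7.24%.

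Lmod1, encoding the smooth muscle leiomodin that starts actin filaments, and Myocd, encoding the coactivator myocardin, were not well above background in any sample. Lmod1 gave 6.14, 11.8 and 8.97 and Myocd 13.0, 12.7 and 3.58 in Samples 1, 2 and 3. The lowest signals of any probe well above background were 12.9, 14.0 and 18.2 on these arrays. No ratio is given for either gene, and their levels were not measurable rather than shown to be absent.

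The comparison of Sample 2 with Sample 1 asks what differed within the first days after transplantation. Islets had been injected by direct puncture of the spleen, after streptozotocin. In this comparison the times since the toxin, the puncture and the graft cannot be told apart. A probe passed the criteria of the study's methods when its ratio was at least 1.5 with a Z-score of at least 2, or at most 0.66 with a Z-score of at most -2. Here the Z-score was the log2 ratio divided by the spread of the log2 ratios of the 1000 probes of nearest mean signal. With 1 array per condition this ranks a probe among the probes of these arrays, and no p-value can be given. Of the 10 measured member probes, 8 had a ratio of at least 1.5, against 10.1% of all 32108 probes, and 0 a ratio of at most 0.66, against 10.4%. The higher-level criteria were passed by 6 member probes, against 1.91% of all probes, and the lower-level criteria by 0, against 2.55%.

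The 6 probes were those of Acta2 (Z-score 6.17), Actg2 (5.79), Cnn1 (5.39), Myh11 (3.12), Mylk (brighter probe, 2.97) and Tagln (2.49). On the log2 scale with the error of the scanner software, the ratio of Sample 2 over Sample 1 was 2.88 ± 0.20 for Acta2, 2.25 ± 0.20 for Actg2, 2.12 ± 0.20 for Cnn1, 1.67 ± 0.21 for Myh11, 1.39 ± 0.21 for Mylk and 1.23 ± 0.20 for Tagln. Acta2 held rank 75 from the top among all log2 ratios, Actg2 rank 215, Cnn1 rank 259 and Tagln rank 878. Smtn at 0.62 and 0.55, the dimmer Mylk probe at 0.68 and Des at 0.57 did not pass, with Z-scores from 1.01 to 1.56. The median log2 ratio over the 8 genes, each by its brightest probe, was 1.53, beside 0.01 over all probes. Among the 6 probes, neighbours in this order whose errors overlapped were Actg2 and Cnn1, Myh11 and Mylk, and Mylk and Tagln, whereas Acta2 lay above all others.

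**Figure D3:**
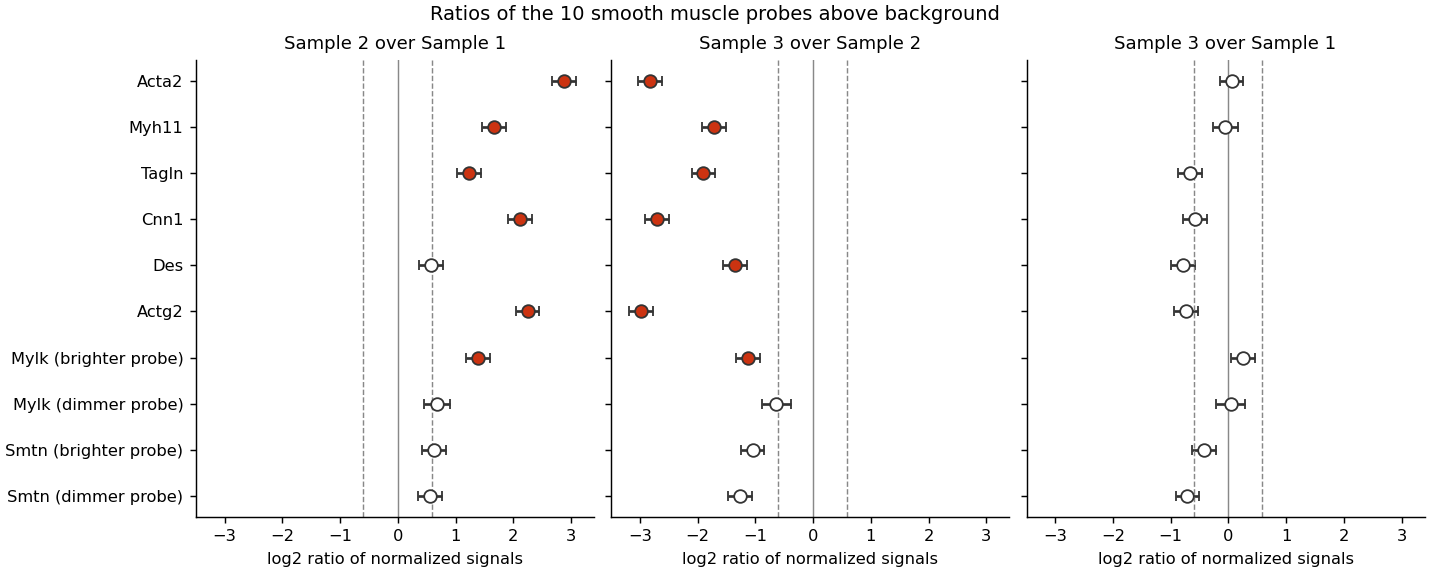
Log2 ratio of the normalized signals for the 10 measured smooth muscle probes in the 3 comparisons. Points are probes, bars the error of the scanner software, dashed lines the ratios 1.5 and 0.66, and red points passed the Z-score and ratio criteria (6 for Sample 2 over Sample 1, 7 for Sample 3 over Sample 2 and 0 for Sample 3 over Sample 1).

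Sample 3 over Sample 2 shares its denominator array with the numerator of the former comparison, so it is not independent of it. All 10 probes had a ratio of at most 0.66, against 14.4% of all probes, and 0 had a ratio of at least 1.5, against 12.4%. The lower-level criteria were passed by 7 probes, against 1.77% of all probes, and the higher-level criteria by 0, against 2.39%. The log2 ratios were -2.98 for Actg2, -2.83 for Acta2, -2.70 for Cnn1, -1.90 for Tagln, -1.72 for Myh11, -1.36 for Des and -1.13 for the brighter Mylk probe, each ± 0.20 to 0.21. Des (Z-score -2.12) and Mylk (-2.11) were close to the limit of -2, and both calls were lost with spike-in scaling (-1.48 and -1.32), with 1 SD over all probes (-1.70 and -1.41) and with a window of 250 probes (-1.96 and -1.84). Both Smtn probes (-1.05 and -1.26) and the dimmer Mylk probe (-0.63) had the same direction without passing. The median over the 8 genes was -1.81, beside -0.04 over all probes.

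Sample 3 over Sample 1 compares the spleen long after transplantation with that of day 0. Here 0 of the 10 probes passed the criteria, against 2.52% of all probes for the higher and 2.21% for the lower level. A ratio of at most 0.66 was found for 4 probes, against 14.7% of all probes, and a ratio of at least 1.5 for 0, against 12.8%. The 4 were Des (log2 ratio -0.79), Actg2 (-0.73), the dimmer Smtn probe (-0.71) and Tagln (-0.67), all with Z-scores between -1.38 and -1.05. Cnn1 at -0.58 lay just above the limit. Acta2 (0.06), Myh11 (-0.05) and the dimmer Mylk probe (0.04) were within the scanner error of 0, and the brighter Mylk probe was at 0.26 ± 0.21. The median over the 8 genes was -0.50, beside -0.02 over all probes.

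The median of the members depended on the scaling. Its difference from the median of all probes hardly did, at -0.48 after quantile normalization and -0.45 with spike-in scaling. The spike-in control RNAs were 66.4% as bright in Sample 3 as in Sample 1, and scaling the arrays to them moved the median of all probes in Sample 3 over Sample 1 to 0.34. The median of the members then was -0.12, with 3 of 8 genes above 0 and 5 below, Myh11 turned from -0.05 to 0.31 and Acta2 went to 0.44.

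A list of 22 other genes of smooth muscle had a smaller median and both signs. List medians and counts are given here over the genes well above background in both samples compared. Of 19 such genes, 14 were higher on day 2 than on day 0 and 5 were lower. The median log2 ratio was 0.53 and the range -1.01 to 1.67. The criteria were passed at the higher level by 6, Pdlim3, Myl9, Npnt, Itga8, Tpm2 and Synpo2, and at the lower level by Synm, an intermediate filament gene; apart from Pdlim3 and Synpo2, these were singled out after their values were seen. Myl9, the regulatory light chain of smooth muscle myosin, gave 7490.4, 20877 and 9025 in Samples 1, 2 and 3, and Tpm2, a tropomyosin, 1269, 3297 and 899. Both were highest in Sample 2, and their log2 ratios of Sample 3 over Sample 1 were 0.27 and -0.50. By the rule for named genes, Pdlim3 (142, 454 and 436) and Synpo2 (442, 971 and 977) had the highest ratios of Sample 3 over Sample 1, and in them the level of Sample 2 was still seen in Sample 3. The lowest were Pgm5 (145, 80.5 and 56.4) and Kcnmb1, a potassium channel subunit that was well above background in Sample 2 alone, at 35.8. Over the list, the median of Sample 3 over Sample 1 was -0.16, with 8 genes higher and 11 lower.

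The regulators of these genes differed little between Samples 1 and 2. Srf, encoding serum response factor, gave 1114, 1284 and 1001 in Samples 1, 2 and 3, and its coactivators Mkl1 and Mkl2 gave 3915, 4059 and 5101, and 1331, 1094 and 1184. None of these passed the criteria in any comparison. Of 9 regulators above background on both days, 1 passed in Sample 2 over Sample 1, Fhl2, a partner of serum response factor, at 168, 400 and 436. Fhl2 also passed in Sample 3 over Sample 1, and thus did not return with the contractile genes. Hey2, a target of Notch signaling, was well above background in Sample 3 alone, at 22.0. The median over these 9 regulators was -0.17 for Sample 2 over Sample 1 and 0.23 for Sample 3 over Sample 1. The value of -0.17 is that of the Elk1 probe, at 247453, 219384 and 249739. This probe was among the brightest of the arrays, where normalization sets values by rank among few probes, so that median says little.

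Receptors and signaling genes of contraction, 15 in number, did not share the pattern of the members as a list. Of the 12 above background on both days, 6 were higher on day 2 than on day 0 and 6 were lower, and the median log2 ratio was 0.03. Those that passed at the higher level were Gucy1a3, a subunit of the nitric oxide receptor guanylate cyclase, at 600, 1730.1 and 1148, and the endothelin receptor gene Ednrb, at 71.4, 194 and 38.9, which also passed at the lower level in Sample 3 over Sample 2. The phosphodiesterase gene Pde5a gave 145, 144 and 201, and Rhoa and the kinases Rock1 and Rock2 had log2 ratios between -0.40 and 0.20 for Sample 2 over Sample 1. Chrm3 and Adra1d, with the lowest values of Sample 3 over Sample 1, were not well above background in Sample 3.

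The closest relatives of the members that are made in most cells differed little between day 0 and day 2 after normalization. The cytoplasmic actins Actb and Actg1 had log2 ratios of -0.01 and -0.24 for Sample 2 over Sample 1, the non-muscle myosins Myh9 and Myh10 -0.07 and 0.23, Tagln2 0.17, and Cnn2 and Cnn3 -0.04 and 0.10. None of these passed the criteria, in contrast to Myh11, Tagln and Cnn1. Actb (249739, 247453 and 231101 in Samples 1, 2 and 3) and Actg1 (136705, 115497 and 115497) were among the brightest probes of the arrays. At that end of the distribution normalization sets values by rank among few probes. A difference could thus be hidden, and these actins are no measure for Acta2. The sarcomeric actins differed from the relatives above. Acta1, the skeletal muscle actin, gave 105, 702 and 109 in Samples 1, 2 and 3, a log2 ratio of 2.74 for Sample 2 over Sample 1 (Z-score 5.44) close to that of Acta2. Actc1, the cardiac actin, was above background on day 2 and day 139 alone, at 19.5 and 44.6. Whether the probes of Acta1, Acta2 and Actg2 also bind one another's transcripts was not tested.

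Markers of neighbouring cell types were read beside the members. Those of striated muscle were dim, with 4, 7 and 2 of the 12 well above background in Samples 1, 2 and 3, and summed signals of the 8 that were above it anywhere of 165, 261 and 228. Myh1, Myh2, Myh6 and Myh7 were above background in Sample 2 alone, at 16.4, 15.9, 21.1 and 32.4, so no ratio is given for them. The 3 genes above it in both Samples 1 and 2 had log2 ratios from -0.20 to 1.06, of which 0 passed the criteria, and the brightest in Sample 2, Tnni3, gave 41.3, 86.2 and 103. All 7 pericyte genes were measured, with summed signals of 36061, 29183 and 27019.7. Most of each sum was Mcam, at 31416, 25295 and 24507.5. For the same comparison, 4 of the 6 above background in both samples were lower and the median log2 ratio was -0.37. Abcc9 gave 1385, 1037 and 728, and the receptor gene Pdgfrb gave 2219, 1494 and 1052. Notch3, singled out after its values were seen, went the other way, at 659, 1138 and 504. All 9 endothelial genes were measured, with summed signals of 17224, 19366 and 15604 and 0 past the criteria in any comparison, and the median over the 8 above background in both Samples 1 and 2 was 0.06. Among them Kdr gave 4769, 6236 and 5204, Cdh5 1025, 687 and 681, and Tek 71.1, 45.3 and 36.7. By their medians, these vessel lists did not share the higher level of the contractile genes in Sample 2.

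The stromal and surface lists did differ. Of 9 fibroblast and reticular genes 8 were measured, with summed signals of 7317, 26255 and 17422. For Sample 2 over Sample 1 the median log2 ratio was 1.20, with 4 past the higher-level criteria and 1, Pdgfra, past the lower-level criteria. Most of the sum of Sample 2 was Col1a1 and Col3a1. Col1a1, a fibrillar collagen and also a product of activated fibroblasts, gave 1179, 11182 and 1361, the same order of samples as Acta2, and Col3a1, named after its values were seen, gave 785, 9030.2 and 1334. Dcn (1585, 2067 and 9670) and Lum (17.3, 37.5 and 180.0) were instead highest in Sample 3, and Pdgfra (1189, 649 and 422) was highest in Sample 1. The 8 mesothelial genes, which mark the cells covering the capsule, had summed signals of 1722, 2633 and 5172 and 3 of the 4 above background in both Samples 1 and 2 passed the higher-level criteria for Sample 2 over Sample 1. Upk3b and Upk1b were below detection on day 0, and gave 45.5 and 50.4 on day 2 and 459 and 184 on day 139. Exceptions were Wt1, highest in Sample 1 at 1492, 1443 and 1057, and Krt8, highest in Sample 2 at 88.2, 454 and 272. Of the 8 genes, 6 were higher in Sample 3 than in Sample 2 and 2 were lower. By summed signal the mesothelial list was highest in Sample 3, where the median of the contractile genes was below that of day 0. In the adipocyte list, 3 of 5 genes were measured, with Adipoq at 21.9, 21.2 and 87.0. Cidec was well above background in Sample 3 alone, at 59.6. Fabp4, the brightest of them, gave 1260, 744 and 1195 and was thus not higher in Sample 3 than in Sample 1. The part of these cell types, or of the piece of spleen taken, in the levels of the members was not tested.

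**Figure D4:**
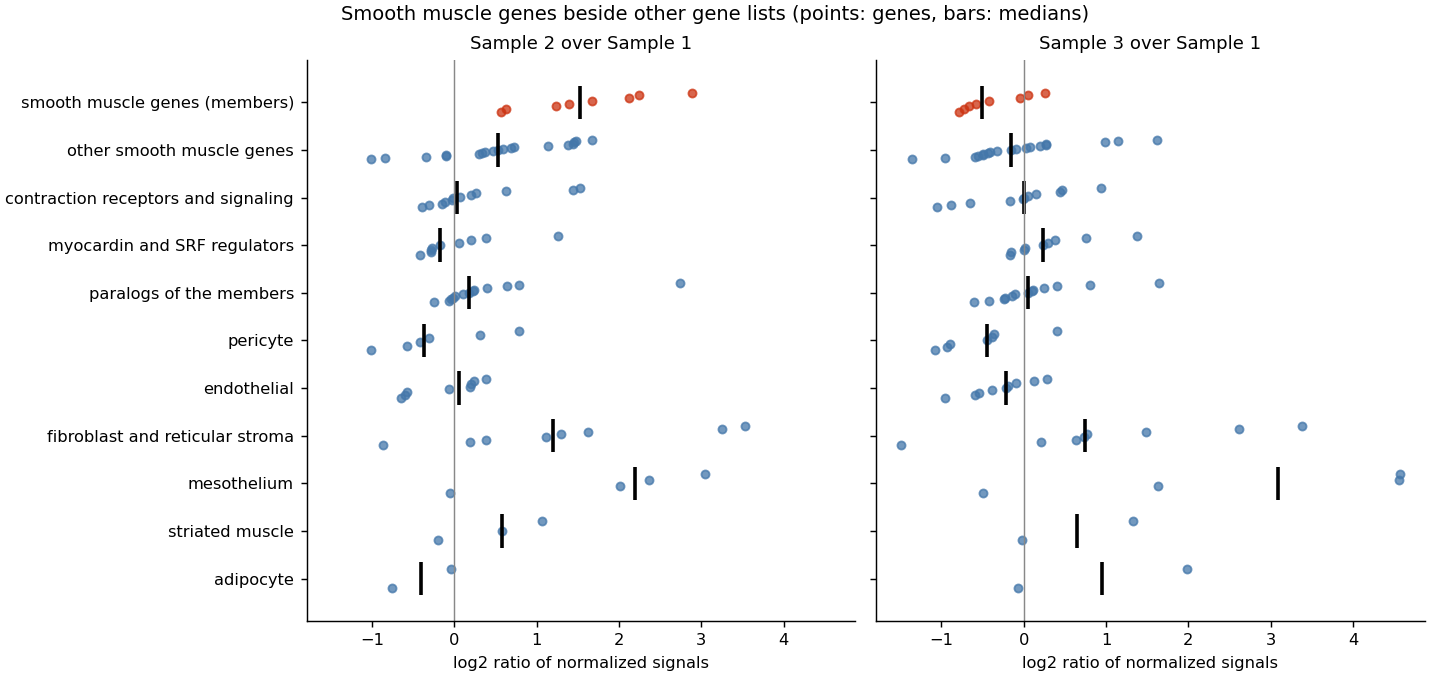
Log2 ratio of normalized signals for the 8 measured smooth muscle genes (red, brightest probe of each) and for the genes of 10 other lists that were well above background in both samples compared (blue), in Sample 2 over Sample 1 (left) and Sample 3 over Sample 1 (right). Points are genes and black bars are list medians, at 1.53 and -0.50 for the smooth muscle genes and 2.19 and 3.09 for the 4 mesothelial genes shown.

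The genes nearest to the members in pattern were found from the log2 signals of the 3 samples, centred for each probe and compared with the median profile of the 8 genes by root mean square distance. Among 26877 other probes above background in all samples, the nearest was Ncam1, an adhesion molecule gene, at a distance of 0.07 (137, 412 and 110 in Samples 1, 2 and 3). Tpm2 by another probe (0.08) and Bex2 (0.08) followed, and then a probe for a region of chromosome 7 (0.10) and ENSMUST00000148907 (0.10), both without a gene symbol. Within the median distance of the members from their own profile, 0.39, lay 214 probes, or 0.796%. A profile of 3 values is matched by many probes, so this order is a description.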

How the data were processed

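Spleen RNA of the 3 conditions was read on Agilent one-color mouse arrays, 1 array each. The authors deposited the scanner output, an intensity for each spot on a linear scale with background subtracted (Feature Extraction 10.7.1.1 in the file headers, 9.5.1.1 in the submitters' processing notes), and a table of processed intensity values per probe whose columns share a distribution, used as an alternative. Control and outlier spots were left out, replicate spots averaged, 55679 probes quantile normalized, raised to at least 1 and taken to log2. Any probe that 1 or more of the samples held well above background was compared. A gene was represented by its brightest measured probe. Calculations used Python 3.11.15, numpy 2.4.6 and pandas 2.3.3, with limma 3.58.1 in R 4.3.3 for normexp. The calls were also run on simulated data with large added differences and little noise, which checks the code and not the results given here. Named were all 10 members, their closest relatives, the 5 nearest in pattern, and genes from among the 2 highest and 2 lowest ratios of Sample 3 over Sample 1 in each list. Ednrb, Elk1, Kcnj8, Mkl1, Myh1, Myh2, Rhoa, Rock1, Rock2, Nkx2-5 and those marked in the text were singled out after their values were seen. List medians were taken over genes well above background in both samples compared, a choice made after seeing the data. The members and lists were chosen with earlier results of these data known. Alternatives were the deposited table, normexp with an offset of 50, 75th percentile or spike-in scaling, a higher floor, outlier spots kept, detection in all samples or none required, other spreads behind the Z-score (a scaled median absolute deviation, 250 probes, 1 SD over all) and the median over a gene's probes. Promoters came from RefSeq (GRCm38.p6); probe positions are those of the array design.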

Additional observations from a re-analysis of the deposited data

How the results depend on the processing

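The counts and medians of the 3 comparisons were recomputed under each alternative. Of these recomputed values, 77 stayed within the tolerance set for calling them the same (1.5 times for a count). Beyond it, 5 medians moved, 1 count rose and 1 count fell. For Sample 3 over Sample 1, spike-in scaling reduced the probes past the ratio limits from 4 to 1, which was then the brighter Mylk probe at a higher level, and moved the median from -0.50 to -0.12. A scaled median absolute deviation raised the probes past the criteria from 0 to 3 (Des, Actg2 and Tagln). For Sample 3 over Sample 2 the median of -1.81 became -1.58 with normexp and -1.41 with spike-in scaling. For Sample 2 over Sample 1 the median of 1.53 became 1.24 with normexp and 1.31 with no detection filter, where Lmod1 and Myocd enter. Spike-in scaling raised the ratios of Sample 3 over the other samples, because its scale was 0.751 in Sample 3 and 1.13 and 1.16 in Samples 1 and 2. The cause of the normexp differences was not tested. The criteria counts ranged from 5 to 7 for Sample 2 over Sample 1 (Tagln was lost with 1 SD over all probes) and from 5 to 9 for Sample 3 over Sample 2, where Des and the brighter Mylk probe were lost with spike-in scaling, 1 SD over all probes and a window of 250 probes. Spike-in scaling also changed the calls over all probes in Sample 3 over Sample 1 from 808 higher and 709 lower to 1460.0 higher and 392 lower. With normexp, the log2 ratio of Sample 2 over Sample 1 was 1.21 in place of 1.67 for Myh11 and 0.32 in place of 0.68 for the dimmer Mylk probe. No paired analysis was possible because each condition has 1 array.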
